A study of Mus musculus with 2 samples.

Results

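The 3 members of the MYC gene family, Myc (ENSMUSG00000022346, chromosome 15), Mycn (ENSMUSG00000037169, chromosome 12) and Mycl (ENSMUSG00000028654, chromosome 4), were followed by name among the 28692 genes counted in 2 single-cell RNA-seq libraries of early mouse T-cell differentiation. Both libraries, FL001 and FL002, came from wild type CD1 fetal liver at E13.5, from which TER-119+ red cell precursors had been removed. Sca-1+ cKit+ hematopoietic stem and progenitor cells (HSPCs) were sorted from it and cultured on a plate coated with the Notch ligand DL4 (10 µg/mL) and the adhesion molecule VCAM-1 (2.32 µg/mL), a feeder-free setting that starts T-cell development. The labels give the same strain, sort and coating for both libraries and no culture day, so FL001 and FL002 are described side by side and not as replicates. No untreated or perturbed sample was analysed here.

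The MYC proteins are transcription factors that pair with the partner protein MAX and bind E-box sequences, mostly at genes for ribosome biogenesis, translation, nucleotide synthesis and cell cycle entry. Mycn is best known from neural and embryonic progenitors and is also used by hematopoietic stem cells, where it can stand in for Myc. Myc is the paralog used by dividing thymocytes and is a direct target of Notch1. Mycl is known from dendritic cells and lung, and has little known use in T cells.

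Cell barcodes were kept from 1500 unique molecular identifiers (UMIs) and 500 detected genes upwards, provided that mitochondrial UMIs did not exceed 10%. This left 1788 barcodes in FL001 with a median of 7722 UMIs and 4100 barcodes in FL002 with a median of 4752.5 UMIs, and 10 barcode sequences were kept in both libraries. The 5 gates on the raw UMIs of 7 other genes stood for stages. The progenitor gate took Lmo2 and Mef2c, transcription factors of multipotent cells, at 2 or more UMIs together with Cd3g at 1 or less. The early gate took Lmo2 and Mef2c at 1 or less together with Cd3g, a chain of the T-cell receptor complex, at 2 or less. The Cd3g gate took Cd3g at 3 or more with no UMI of Il2ra, the CD25 receptor chain that marks the DN2 and DN3 stages, and the Il2ra gate took 1 or more UMIs of Il2ra. The commitment gate took 2 or more UMIs in sum of Ptcra (the pre-T-cell receptor alpha chain), Lef1 and Bcl11b (transcription factors of T-lineage commitment). In that order the gates held 428, 381, 327, 738 and 451 barcodes in FL001, and 724, 1134, 873, 1668 and 501 in FL002. They overlapped, and 30.1% and 19.6% of kept barcodes fell in more than 1 gate. The largest overlap was that 61.0% and 58.1% of commitment gate barcodes were also in the Il2ra gate, so levels in these gates share cells.

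Cells of other lineages were part of the first gates. The 8 neutrophil and monocyte markers (Mpo, Elane, Prtn3, Ctsg, Ms4a3, Lyz2, S100a8 and S100a9) summed to 2496 and 1651 CPM (counts scaled to 1000000 UMIs) in the progenitor gate and to 3759 and 1126 CPM in the early gate of FL001 and FL002, and to between 30.8 and 274 CPM in the 3 later gates. At least 5 UMIs of this list stood in 55.6% and 35.8% of progenitor gate barcodes and in 24.7% and 11.2% of early gate barcodes. The 8 megakaryocyte and erythroid markers summed to 754 and 329 CPM in the progenitor gate. In both libraries Cd3g was at 10.0 and 18.6 CPM in the progenitor gate and at 3622 and 3320 CPM in the commitment gate, a difference that the gates themselves impose.

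Which paralog each stage used changed along the gates. Myc made up 51.4% of the family's 582 UMIs in the progenitor gate of FL001 (exact binomial 95% interval 47.2 to 55.5) and exactly 227 of 454 UMIs in the early gate (45.3% to 54.7%). It made up 68.6% in the Cd3g gate (62.6 to 74.1), 70.6% in the Il2ra gate (67.2 to 73.9) and 87.1% in the commitment gate (82.5 to 90.8). In FL002 the Myc shares were 52.6% (48.5 to 56.6), 58.1% (54.7 to 61.5), 77.6% (73.8 to 81.0), 78.9% (76.4 to 81.3) and 86.5% (81.2 to 90.8) in the same order. In each library the intervals of the Cd3g and Il2ra gates overlapped each other, and that of the commitment gate lay above every gate before it in FL001 and above all but the Il2ra gate in FL002. These intervals, like all below, cover counting error in 1 library only.

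Mycn differed more widely over the gates than Myc. In FL001 Mycn stood at 75.3 CPM in the progenitor gate (279 UMIs, exact Poisson 95% interval 66.7 to 84.7) and at 75.8 CPM in the early gate. It stood at 29.0 CPM in the Cd3g gate, 33.9 CPM in the Il2ra gate and 10.1 CPM in the commitment gate (36 UMIs, 7.05 to 13.9). In FL002 the Mycn levels were 66.4 CPM (282 UMIs, 58.8 to 74.6), 60.2, 27.5, 27.2 and 12.2 CPM (29 UMIs, 8.20 to 17.6). In both libraries the progenitor and early gates did not differ beyond their intervals, nor did the Cd3g and Il2ra gates, and the commitment gate was lowest.

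The levels of Myc spanned a narrower range of folds, and in FL002 they added to the change in share, being higher in the Il2ra than in the progenitor gate. In FL001 the level of Myc was 80.7 CPM in the progenitor gate (299 UMIs, 71.8 to 90.4), 76.5 in the early, 64.0 in the Cd3g (55.0 to 74.1), 81.7 in the Il2ra (74.8 to 89.0) and 67.7 CPM in the commitment gate (59.4 to 76.8). In FL002 it was 75.1 CPM (319 UMIs, 67.1 to 83.8), 83.8, 95.2 (86.3 to 104.8), 103.3 (96.5 to 110.4) and 78.5 CPM (67.7 to 90.7). The order of the gates differed between the libraries: the Cd3g gate was the lowest in FL001 and the second highest in FL002. Under the same thresholds, Myc was 1.49 times higher in FL002 than in FL001 in the Cd3g gate (95% interval 1.246 to 1.78). It was 1.26 times higher in the Il2ra gate (1.13 to 1.41). The progenitor, early and commitment gates had library ratios for Myc of 0.93, 1.10 and 1.16, with intervals that included 1. The study describes cells taken at differing culture times or straight after the sort and pooled, without saying which library holds which. The gates are raw UMI thresholds on libraries of unlike depth, with medians of 7722 and 4752.5 UMIs. Of Cd3g gate barcodes, 51.4% in FL001 and 22.7% in FL002 were also in the commitment gate. The empty droplets described below also held more Myc in FL002. Culture time, library preparation, depth, the cells each gate took and free RNA cannot be told apart here.

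**Figure D1:**
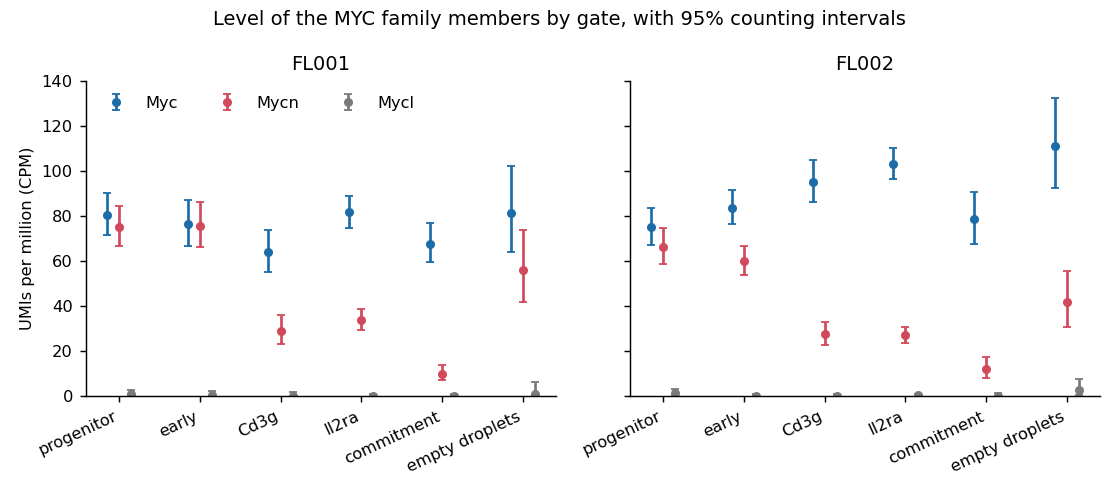
Level of Myc, Mycn and Mycl in CPM (vertical axis) in each gate and in empty droplets (horizontal axis) of FL001 and FL002; points are summed counts and bars exact Poisson 95% intervals. Mycn lay at 60.2 to 75.8 CPM in the progenitor and early gates and at 10.1 and 12.2 CPM in the commitment gate. Myc lay between 64.0 and 103.3 CPM in all gates.

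Mycl was close to absent. It gave 8 UMIs in 8 of the 1788 kept barcodes of FL001 and 9 UMIs in 9 of 4100 in FL002. Of these, 4 and 6 UMIs were in the progenitor gate (1.08 and 1.41 CPM). No Mycl UMI was found in the commitment gate of either library, which at 3 counts allows up to 0.839 and 1.27 CPM. Droplets with 100 UMIs or fewer, taken as empty, held Mycl at 1.10 and 2.67 CPM (1 and 3 UMIs). With at most 6 UMIs in any gate, no order of the gates was read for Mycl.

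The same free RNA held Myc at 81.6 and 111.2 CPM (74 and 125 UMIs) and Mycn at 56.2 and 41.8 CPM (51 and 47 UMIs). An empty droplet held 2.94 UMIs on average in FL001 and 3.83 in FL002. Mycn in the Cd3g, Il2ra and commitment gates of both libraries was below its level in the empty droplets, and in the progenitor and early gates above it. Myc was below its level in the empty droplets in all 5 gates of FL002 and in 4 of 5 of FL001, where the Il2ra gate stood at 81.7 against 81.6 CPM. These are orders of the values, and counting error in the empty droplets was not weighed in them. The part of free RNA in the levels of the gates was not tested.

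The upstream windows below are shown because Mycn was the member whose level differed most widely over the gates, with Mycl printed beside it as the other member in the table used. They are the 250 bases before the annotated start in RefSeq, on build GRCm38.p6, with Mycn at chr12:12941837-12942086 on the minus strand and Mycl at chr4:122995681-122995930 on the plus strand. Myc had no entry in that table, so the windows do not compare Myc with Mycn. The labels list build mm9, so these positions belong to RefSeq and not to the deposited counts. Capitals mark the E2F-type motif TTTGGCGC, a site type of the cell cycle factors E2F, searched on both strands together with the MYC/MAX E-box CACGTG and the RBPJ-type motif GTGGGAA of Notch signalling.
Mycn: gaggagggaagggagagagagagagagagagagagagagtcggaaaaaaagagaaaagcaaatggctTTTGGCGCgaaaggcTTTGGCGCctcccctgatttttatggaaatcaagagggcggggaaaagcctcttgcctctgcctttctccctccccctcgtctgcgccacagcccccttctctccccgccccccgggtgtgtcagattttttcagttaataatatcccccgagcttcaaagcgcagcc
Mycl: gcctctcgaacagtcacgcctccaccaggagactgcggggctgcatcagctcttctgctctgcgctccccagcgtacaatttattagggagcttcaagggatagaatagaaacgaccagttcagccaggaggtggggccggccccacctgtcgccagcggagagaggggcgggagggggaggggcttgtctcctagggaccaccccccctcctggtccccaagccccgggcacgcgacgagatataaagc
The Mycn window held 2 matches to the E2F-type motif, 160 and 175 bases before the start, and none to the other motifs, and the Mycl window held none of the 3. Over all 32851 promoter windows of this length, 0.417% held the E2F-type motif on either strand, 6.02% the E-box and 5.42% the RBPJ-type motif. A match is a description of the letters and no evidence of binding in these cells.

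In 3 of the 5 comparisons between groups of barcodes the Mycn difference exceeded counting error in both libraries. Mycn was 2.61 times lower in the Cd3g than in the early gate of FL001 (29.0 against 75.8 CPM, 95% interval 2.02 to 3.41) and 2.19 times lower in FL002 (27.5 against 60.2 CPM, 1.78 to 2.71). Of 5429 genes with at least 20 CPM in either gate, 2.1% were lower and 3.13% higher by at least 1.5 times in both libraries, and Mycn was among the lower. Of Cd3g gate barcodes, 51.4% in FL001 and 22.7% in FL002 were also in the commitment gate. With each barcode in 1 gate only, the ratio of Cd3g to early gate for Mycn was 0.614 in FL001, against 0.383 with the overlapping gates, and the Myc shares of the Cd3g gate (50.2% to 65.5%) and early gate (43.4% to 54.3%) then had overlapping intervals in that library. Without barcodes with other lineage markers (5 or more UMIs summed over the neutrophil and monocyte, megakaryocyte and erythroid, and mast and basophil lists) the FL001 ratio was 0.231. Myc had a ratio of 0.84 (0.68 to 1.02) in FL001 and 1.14 (0.99 to 1.30) in FL002 at the same step. With shared barcodes left out, Mycn was 7.66 times lower in the commitment than in the progenitor gate of FL001 (5.38 to 11.2) and 5.41 times lower in FL002 (3.68 to 8.22), where 8.06% of 5745 genes were lower and 9.16% higher. The Myc ratio there was 0.84 (0.703 to 0.996) and 1.04 (0.863 to 1.253). Without barcodes with other lineage markers the FL001 ratio became 0.0655 for Mycn and turned to 1.14 for Myc.

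The early and progenitor gates, as whole gates, showed no difference in Mycn beyond counting error, with ratios of 1.01 (0.84 to 1.20) and 0.91 (0.77 to 1.06), nor in Myc, with 0.95 (0.79 to 1.13) and 1.12 (0.97 to 1.29). Among 5532 genes, 3.38% were higher and 3.02% lower at this step. The Il2ra and Cd3g gates were the most alike of the pairs, with 0.0757% of 5286 genes higher and 0.132% lower. Mycn had ratios of 1.17 (0.90 to 1.52) and 0.99 (0.79 to 1.24) there, and Myc 1.28 (1.08 to 1.52) and 1.08 (0.96 to 1.22).

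Within the Il2ra gate alone, Mycn was lower in barcodes with commitment genes. Of the barcodes of this gate, 10.2% in FL001 and 16.5% in FL002 were also in the early gate. Another overlap was with the progenitor gate, at 2.30% and 2.16%. The part of these barcodes in the difference was not tested. In Il2ra gate barcodes that were also in the commitment gate, Mycn stood at 10.6 CPM against 45.8 CPM in the others in FL001, 4.34 times lower (2.81 to 7.004). In FL002 it stood at 14.96 against 29.5 CPM, 1.97 times lower (1.24 to 3.30). Myc stood at 71.6 against 86.8 CPM in FL001, 1.21 times lower (1.004 to 1.47), and at 83.0 against 107.1 CPM in FL002, 1.29 times lower (1.06 to 1.59). In this comparison 1.35% of 5425 genes were lower and 3% higher by at least 1.5 times in both libraries. Mycn was among the lower genes and Myc was not.

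The same gate was then split by how many UMIs of Ptcra, Lef1 and Bcl11b a barcode held, a split made after the data were seen. In FL001 Mycn stood at 51.1 CPM with 0 such UMIs, 19.5 CPM with 1, 15.4 CPM with 2 to 3 and 8.18 CPM with 4 or more (12 UMIs in 177 barcodes, 4.23 to 14.3). In FL002 the levels were 32.5, 14.9, 14.5 and 16.0 CPM. The step from 0 to 1 UMI was 2.63 times in FL001 (1.53 to 4.90) and 2.18 times in FL002 (1.34 to 3.76), and no later step exceeded its interval in either library. Myc differed beyond its interval in 1 of these steps, from 0 to 1 UMI in FL002, at 111.3 against 87.0 CPM (1.28 times, 1.04 to 1.59). Barcodes with 0 such UMIs had median totals of 9052 and 4650 UMIs against 7188 and 3954 with 4 or more, and the part of depth in this was not tested.

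**Figure D2:**
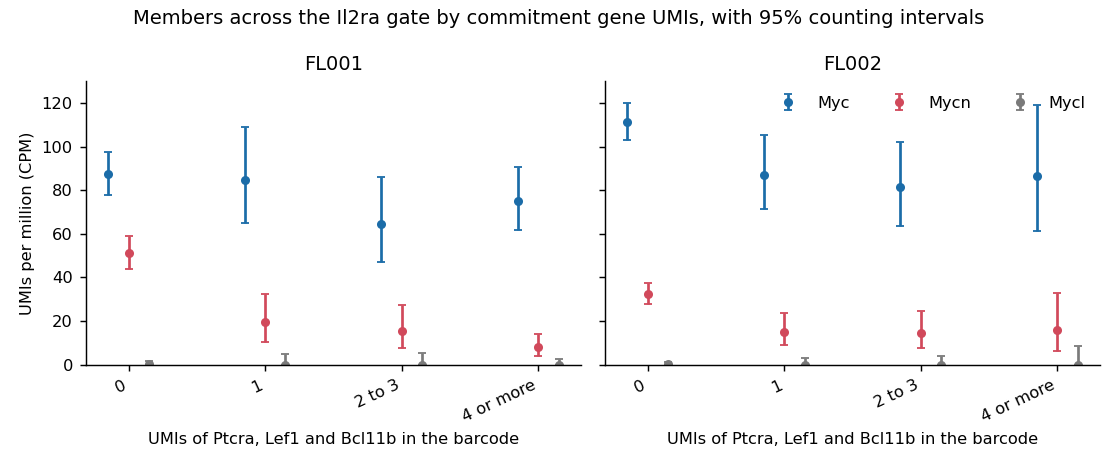
Myc, Mycn and Mycl in CPM (vertical axis) within the Il2ra gate, by the UMIs of Ptcra, Lef1 and Bcl11b in the barcode (horizontal axis), in FL001 and FL002; bars are exact Poisson 95% intervals. Mycn is highest at 0 commitment gene UMIs, 51.1 and 32.5 CPM, and lies between 8.18 and 19.5 CPM in the other groups.

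The progenitor gate held cells that used different paralogs. This split by lineage markers was also made after the data were seen. Progenitor gate barcodes with at least 5 UMIs of the neutrophil and monocyte markers had Myc at 91.8 CPM and Mycn at 43.1 CPM in FL001 (238 barcodes), and Myc at 100.1 CPM and Mycn at 42.3 CPM in FL002 (259 barcodes). Barcodes below 5 UMIs for that list and for the megakaryocyte and erythroid list had Myc at 63.1 CPM and Mycn at 130.1 CPM in FL001 (180 barcodes). In FL002 these had Myc at 57.0 CPM and Mycn at 84.6 CPM (454 barcodes). So Mycn was 3.02 times higher (2.34 to 3.90) and 2.002 times higher (1.53 to 2.63) in progenitors with neither list than in those with neutrophil and monocyte markers, and Myc was 1.45 times lower (1.12 to 1.90) and 1.76 times lower (1.40 to 2.21). In progenitors with neither list Myc made up 32.4% (26.7 to 38.6) and 39.8% (34.5 to 45.2) of family UMIs, which made Mycn the major paralog there. Median totals were 9393 and 7029 UMIs with the neutrophil and monocyte markers and 6651 and 4889 with neither, and the part of depth was not tested.

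In the early gate the same split gave Mycn at 68.6 CPM with the neutrophil and monocyte markers and 78.4 CPM with neither list in FL001, a ratio within counting error (1.14, 0.84 to 1.57), and at 37.1 and 63.7 CPM in FL002 (1.72, 1.18 to 2.59).

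Against the narrower start of progenitors with neither list, Mycn was already lower in the early gate. Early gate barcodes with neither list had Mycn at 78.4 and 63.7 CPM, 1.66 times (1.33 to 2.07) and 1.33 times (1.11 to 1.59) lower than progenitors with neither list. Myc was at 74.1 and 85.6 CPM in the same early barcodes, with ratios to the progenitors of 1.17 (0.89 to 1.55) and 1.502 (1.23 to 1.84). The commitment gate then stood 12.9 times (8.93 to 19.0) and 6.88 times (4.64 to 10.5) lower in Mycn than progenitors with neither list, and its Myc ratio was 1.07 (0.83 to 1.39) and 1.36 (1.08 to 1.72).

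**Figure D3:**
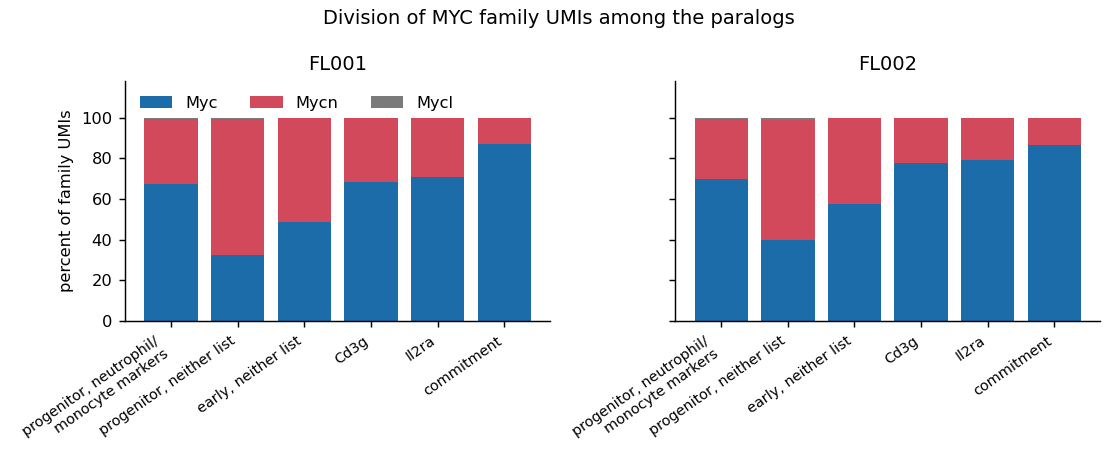
Percent of family UMIs (vertical axis) from Myc, Mycn and Mycl in the progenitor gate split by lineage markers, the early gate with neither list, and the 3 later gates (horizontal axis) of FL001 and FL002. Mycn is the major paralog in progenitors with neither list, where Myc holds 32.4% and 39.8%, and Myc holds 87.1% and 86.5% in the commitment gate.

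A pair of small groups of other cells held few UMIs of the family. The 13 progenitor gate barcodes of FL001 with at least 5 UMIs of megakaryocyte and erythroid markers held 10 Mycn and 2 Myc UMIs, and the 11 of FL002 held 7 Mycn and 0 Myc UMIs. Mycn stood at 93.2 CPM (44.7 to 171.5) and 109.9 CPM (44.2 to 226.5) in them. Set against progenitors with neither list, their Mycn ratio was 0.72 (0.34 to 1.35) in FL001 and 1.30 (0.52 to 2.73) in FL002. Their Myc ratio in FL001 was 0.295 (0.035 to 1.10), so each of these intervals included 1. The early gate barcodes with at least 5 UMIs of the neutrophil granule genes S100a8 and S100a9, 12 in FL001 and 8 in FL002, held no Mycn UMI, which at 3 counts allows up to 37.2 and 86.2 CPM, and 5 and 1 Myc UMIs. For Mycn the whole early gate stood at 75.8 CPM in FL001, above that bound, and at 60.2 CPM in FL002, below it. These numbers of barcodes are too small to order the groups.

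Barcodes with and without a UMI of each member were then compared gene by gene within a gate. Levels here were averaged over 5 bins of equal size by total UMIs, so that both sides had the same depth profile, and a gene was counted when it differed by at least 25% the same way in both libraries. A gene was tested when either side reached 20 CPM in both libraries. Genes such as Elane, Ms4a3, Ebf1, Gp1bb, Gzmc, Il22 and Il7r below passed only through the side where they were high. For such genes only that direction could be called. In the progenitor gate, 166 and 211 barcodes had a Mycn UMI. Of 5538 genes, 1.95% were higher and 2.58% lower with Mycn, and 7 of 8 neutrophil and monocyte markers were among the lower. Elane, neutrophil elastase, stood at 0.751 against 193 CPM in FL001 and at 1.60 against 84.7 CPM in FL002. Ms4a3, a gene of committed granulocyte and monocyte precursors, stood at 1.17 against 77.7 CPM and at 3.26 against 45.8 CPM. Mpo, myeloperoxidase, was 2.87 and 1.97 times lower. Markers of other lineages were lower too: Irf8, a factor of dendritic cells and monocytes, by 6.70 and 4.56 times, and the B-cell factor Ebf1 at 2.79 against 31.0 CPM and 1.05 against 25.4 CPM. Higher with Mycn were the megakaryocyte genes Pf4 (2.55 and 2.61 times) and Itga2b (1.46 and 2.16 times), and the Notch target Dtx1 (1.34 and 1.51 times). The 13 and 11 barcodes with megakaryocyte and erythroid markers held 99.4% and 98.6% of the Pf4 UMIs of this gate, so the Pf4 difference rests on them.

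In the same gate 177 and 220 barcodes had a Myc UMI, and 1.96% of 5500 genes were higher and 1.78% lower with Myc. Of the neutrophil and monocyte markers, 1 of 8 was higher, Mpo by 1.55 and 1.32 times, and none was lower. The median ratio of these 8 was 1.36 in FL001 and 0.681 in FL002, on opposite sides of 1. Pf4, platelet factor 4, stood at 10.8 CPM with Myc against 1310 CPM without it in FL001, and at 1.48 against 405 CPM in FL002. Gp1bb, a platelet receptor chain, stood at 0 against 26.7 CPM and 1.65 against 20.8 CPM. The Pf4 difference rests on the same 13 and 11 barcodes.

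In the early gate, all 8 neutrophil and monocyte markers were lower in barcodes with a Mycn UMI, against 1.87% of 5395 genes lower and 1.84% higher. S100a8 stood at 6.42 against 2100 CPM in FL001 and 0.419 against 447 CPM in FL002. The 12 and 8 barcodes named above held 99.7% and 99.5% of the S100a8 UMIs of this gate. In FL001 63.8% of early gate barcodes with at least 5 UMIs of this list held no Mycn UMI, against 66.1% with neither list. In FL002 these shares were 82.7% and 75.8%. So in FL001 Mycn was not found less often in barcodes with these markers. How far the other markers rest on few barcodes was not tested. Cpa3, a mast cell protease also found in early lymphoid cells, was 1.52 and 1.70 times lower, and Hoxa9, a homeobox factor of progenitors, was the 1 of 3 tested progenitor markers that was higher. Also lower with Mycn were Cd3g, 1 of 3 tested gate genes, Cd3d, 1 of 3 tested T-lineage markers, and the granzyme gene Gzmc. With Myc, 1.27% of 5374 genes were higher and 1.73% lower in the early gate. The 8 neutrophil and monocyte markers had median ratios of 1.35 in FL001 and 0.596 in FL002, on opposite sides of 1. Of these 8, 3 were among the lower genes, S100a8, S100a9 and Lyz2. So were Gzmc, at 3.27 against 66.6 CPM and 1.78 against 24.9 CPM, and Il22, at 0 against 54.2 CPM and 0 against 20.1 CPM, a granzyme and a cytokine of innate lymphoid cells. Over all kept barcodes, and not in this gate alone, 10 and 9 held at least 5 UMIs of Il22 and Gzmc. These had 1 and 0 Myc UMIs and 1 and 1 Mycn UMIs.

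In the Il2ra gate the barcodes with Mycn, 155 in FL001 and 187 in FL002, were lower in T-lineage genes. Of 5334 genes, 3% were lower and 1.84% higher with Mycn, and 4 of 6 tested gate genes (Ptcra, Bcl11b, Cd3g and Lef1) were lower, as were 3 of 6 T-lineage markers (Thy1, Cd3e and Cd3d). Mef2c was higher with Mycn, at 27.9 against 14.2 CPM and 50.3 against 34.9 CPM. Il7r, the interleukin 7 receptor chain, stood at 15.6 against 38.9 CPM and at 15.4 against 24.8 CPM. Nrarp, a Notch target, was 1.34 and 1.34 times lower and Gadd45a, a growth arrest gene, 1.81 and 1.51 times lower. The gate was set on Il2ra alone, so these genes were free to differ within it. For Ptcra, Lef1 and Bcl11b this is the relation of the split by commitment genes above, read from the other side. It is no separate result. With Myc, in 314 and 604 barcodes, 0.414% of 5313 genes were higher and 0.508% lower. Rrm2, a subunit of ribonucleotide reductase, was 1.47 and 1.35 times lower with Myc and was the 1 of 16 proliferation genes to differ.

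Myc and Mycn were found together about as often as separate detection would give. In FL001 both were found in 63, 57, 29, 79 and 14 barcodes of the 5 gates in order, and in FL002 in 58, 99, 44, 88 and 7. The product of the separate detection rates, taken within 5 bins of total UMIs, gave 69.3, 49.8, 27.6, 73.5 and 12.9 barcodes in FL001 and 64.2, 86.4, 39.5, 77.5 and 7.80 in FL002. The ratios in the progenitor gate were 0.91 (0.71 to 1.14) and 0.90 (0.69 to 1.15), below 1 in both libraries. In the early, Cd3g and Il2ra gates they ran from 1.05 to 1.15, above 1 in both libraries, and in the commitment gate they were 1.08 and 0.90. All 10 intervals included 1. They are binomial intervals of the number with both genes among the barcodes of the gate, divided by the product, which was held fixed. They do not take the separate detection rates as given, so they do not test independence. Neither exclusion nor joint detection was shown at this depth. Of barcodes with Mycn in the progenitor gate, 38.0% and 27.5% also had Myc, and in the Il2ra gate 51.0% and 47.1% did.

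Without the bins of depth the ratio lay between 1.20 and 1.33 in the 3 middle gates. In the Il2ra gate of FL001 barcodes with both genes had a median of 11191 UMIs, those with Myc alone 8346, those with Mycn alone 9027.5 and those with neither 6811.5. Neither gene was found in 47.2% and 57.9% of Il2ra gate barcodes, which at this depth does not show that the RNA was absent. Most barcodes with Myc held 1 UMI: in the Il2ra gate 188 and 413 barcodes had 1, 70 and 142 had 2, and 56 and 49 had 3 or more.

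**Figure D4:**
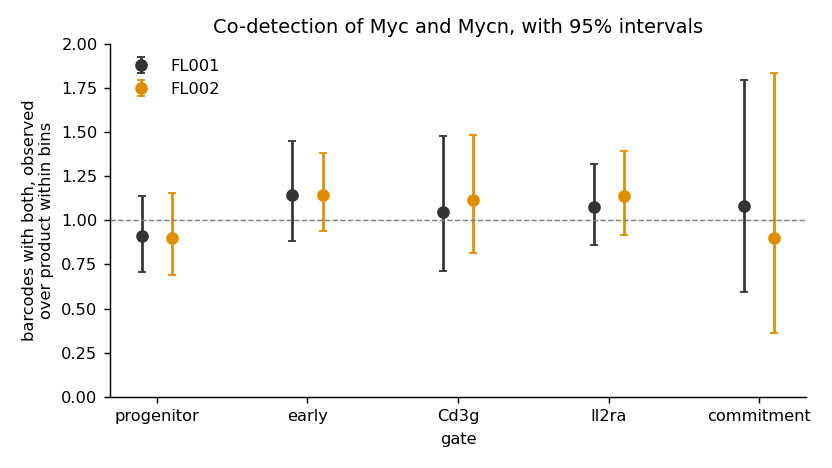
Barcodes with both Myc and Mycn, as observed number over the product of the separate detection rates within 5 bins of total UMIs (vertical axis), by gate (horizontal axis) in FL001 and FL002. Bars are binomial 95% intervals of the observed number with the product held fixed, and the dashed line is a ratio of 1. The progenitor gate lies at 0.91 and 0.90 and the early gate at 1.14 and 1.15, and every interval crosses 1.

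Total UMIs per barcode are a rough measure of RNA content and capture together. In the progenitor gate Mycn was lower in the highest than in the lowest bin, and Myc was higher beyond its interval in FL002 only. The Spearman (rank) correlation of UMIs per total UMIs with total UMIs was -0.040 and -0.074 for Mycn. For Myc it was 0.184 and 0.210. In this gate 58.6% and 69.6% of barcodes held no Myc UMI, and 61.2% and 70.9% no Mycn UMI. With so many zeros the correlation can be positive where levels hardly differ. Myc in the Cd3g gate had 0.233 and 0.181, with highest over lowest bin at 1.004 and 1.02. No trend in level in the progenitor gate was therefore read from these correlations. Over 5 bins of equal barcode number, from the fewest to the most UMIs, Mycn in FL001 stood at 115.8, 108.8, 69.3, 68.6 and 56.8 CPM, 2.04 times lower at the top (1.36 to 3.03). In FL002 it stood at 117.1, 99.6, 63.8, 56.8 and 43.0 CPM, 2.73 times lower at the top (1.83 to 4.05). Myc stood at 77.2, 70.05, 89.5, 64.1 and 93.2 CPM in FL001, a ratio of 1.21 (0.79 to 1.90), and at 51.5, 78.1, 50.3, 76.7 and 94.8 CPM in FL002, a ratio of 1.84 (1.16 to 3.04). In this gate the share of barcodes with neutrophil and monocyte markers went from 26.7% in the lowest to 75.3% in the highest bin in FL001, and from 5.52% to 64.6% in FL002. In progenitors with neither list the Mycn ratio of highest to lowest bin was 1.48 (0.81 to 2.92) in FL001, and in FL002 Mycn stayed 2.32 times lower at the top (1.47 to 3.62). Without barcodes that reached 5 UMIs over those lists and the mast and basophil list together, the FL001 ratios were 1.62 for Mycn and 3.62 for Myc. The direction for Mycn in FL001 thus changed when those barcodes were left out. A fixed cut of 5 marker UMIs is passed more easily by deeper barcodes, so leaving them out takes more from the top bins. Depth and cell content cannot be told apart here.

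In the Il2ra gate the Myc ratio of highest to lowest bin was 0.75 in FL001 (0.55 to 1.03), an interval that included 1. In FL002 it was 0.78 (0.61 to 0.99). The Spearman correlation of Myc per total UMIs with total UMIs was slightly positive, at 0.084 in both libraries. Most barcodes held no Myc UMI, so no trend in level was read from this correlation either. Mycn had a ratio of 1.69 in FL001 (0.92 to 3.40) and of 2.76 in FL002 (1.44 to 5.93), whose lowest bin held 10 Mycn UMIs. The Mycn relation in this gate did not hold under every setting: in FL002 the ratio was 1.01 with at least 3000 UMIs per barcode and 1.38 over 3 bins, and in FL001 it was 0.779 with gate thresholds raised by 1 UMI. In the early, Cd3g and commitment gates every ratio of either gene had an interval that included 1. With each barcode thinned to 1500 UMIs, the expected share of barcodes with a Mycn UMI was 10.9% and 10.4% in the progenitor gate and 1.29% and 1.66% in the commitment gate, against 38.8% and 29.1%, and 6.65% and 4.59%, before thinning. For Myc the thinned shares were 10.4% and 9.72% in the progenitor gate, 11.7% and 14.4% in the Il2ra gate and 9.90% and 10.6% in the commitment gate.

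**Figure D5:**
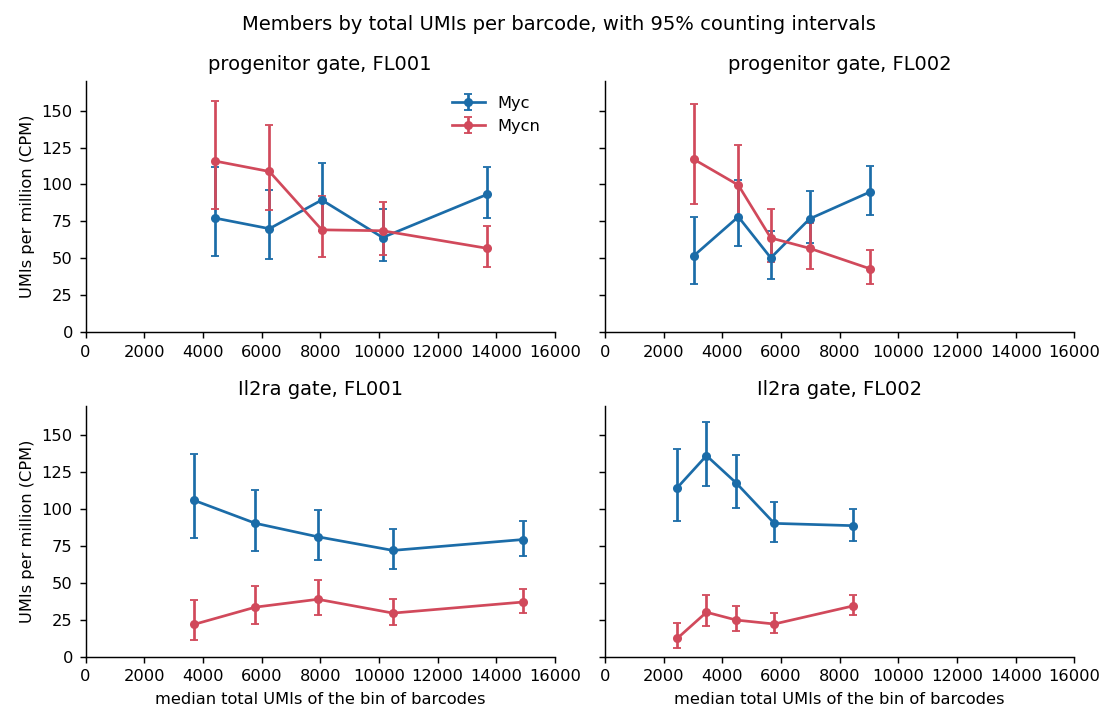
Myc and Mycn in CPM (vertical axis) by 5 bins of total UMIs per barcode, placed at each bin's median (horizontal axis), in the progenitor and Il2ra gates of FL001 and FL002; bars are exact Poisson 95% intervals. In the progenitor gate Mycn goes from 115.8 and 117.1 CPM in the lowest bin to 56.8 and 43.0 CPM in the highest.

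The partners of the MYC proteins varied less than Mycn. Of the 10 genes in this network 4 passed the level filter in each comparison between gates. Max, the required partner, stood between 79.4 and 107.4 CPM in all gates of both libraries. Mxd4, which pairs with MAX and opposes MYC, was the 1 that differed by 1.5 times. It stood at 65.7 CPM in the commitment against 39.4 CPM in the progenitor gate of FL001 (1.67 times higher). In FL002 it stood at 76.8 against 29.3 CPM (2.62 times). At this step 9.16% of 5745 genes were higher, so 1 gene of 4 does not set the list apart. Mga, a MAX partner of another repressor complex, stood between 25.8 and 42.6 CPM, and Mlx, a MAX-like protein, between 23.9 and 41.4 CPM. Mnt, Mxd1, Mxd3, Mxi1, Mlxip and Zbtb17 were at or below 20.2 CPM in every gate. Of 7 genes that control MYC protein turnover, Aurka, a mitotic kinase that stabilizes the MYCN protein, was lower in the early than in the progenitor gate. It was 1.82 and 1.69 times lower, beside 3.02% of 5532 genes lower at this step. None of the 5 or 6 tested differed between other gates.

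Most of the listed receptors and Notch targets differed far more between the progenitor and commitment gates than Myc itself. From the progenitor to the commitment gate 5 of 7 tested were higher and 1 lower, beside 9.16% and 8.06% of all 5745 genes. Notch1 stood at 68.5 and 66.6 CPM in the progenitor gate and at 245.3 and 253.8 CPM in the commitment gate, 3.58 and 3.81 times higher. The Notch targets Hes1, Nrarp and Dtx1 were 4.88, 5.55 and 9.56 times higher in FL001 and 5.05, 5.38 and 4.44 times in FL002, and Il7r 4.22 and 3.67 times. Flt3, a receptor of multipotent progenitors, was 22.6 and 14.8 times lower. Already in the early gate Nrarp was 3.21 and 3.48 times and Hes1 2.86 and 2.74 times the progenitor level. Within the Il2ra gate, 4 of 7 tested genes of this list were higher in barcodes with commitment genes, beside 3% of all 5425 genes. These were Notch1, Notch3, Dtx1 and Il7r, by 1.51 to 2.05 times. The Notch targets Hes1 and Nrarp did not reach 1.5 times in both libraries. Myc was 1.21 and 1.29 times lower in these barcodes, and a link between the 2 was not tested.

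Between the progenitor and commitment gates, 1 of 23 tested ribosome biogenesis genes known as MYC targets differed by 1.5 times. So did 1 of 20 such genes of metabolism and translation. Of all 5745 genes, 9.16% were higher and 8.06% lower at this step, so these counts do not set the lists apart. The ribosome biogenesis list was lower in sum. It summed to 9704 and 10157.5 CPM in the progenitor gate and to 8414 and 7829 CPM in the commitment gate. The metabolism and translation list went opposite ways in the libraries, from 13552 to 13903 CPM in FL001 and from 13511 to 12189 CPM in FL002. Of the 24 ribosome biogenesis genes, 23 were tested in every comparison, and from the progenitor to the commitment gate Nop16 was 1.53 and 1.66 times lower and the others did not reach 1.5 times in both libraries. Their median ratio at that step was 0.94 and 0.83, beside 0.97 and 0.99 over all genes tested. Of 20 target genes of metabolism and translation, Tfrc, the transferrin receptor, was 3.90 and 3.73 times higher, and the median ratio was 0.99 and 0.90. Within the Il2ra gate, the barcodes with commitment genes had median ratios of 0.87 and 0.89 for ribosome biogenesis. For metabolism they were 0.91 and 0.91, beside 0.994 and 1.0001 over all genes. No gene of either list reached 1.5 times in both libraries there, beside 1.35% of 5425 genes lower and 3% higher. Of the 5 genes that MYC is known to lower, 2 passed the level filter at the step from progenitor to commitment gate and both were higher, beside 9.16% of all genes tested: Cdkn1a, the cell cycle inhibitor p21, by 3.84 and 4.99 times and Gadd45a by 2.76 and 1.66 times. Of 16 proliferation genes 1, Cenpf, a kinetochore protein, was lower, by 1.80 and 1.67 times, beside 8.06% of all genes tested.

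The target lists were also compared between barcodes with and without a Myc UMI. The median ratio over the 23 ribosome biogenesis genes was 1.14 and 1.09 in the progenitor gate, 1.12 and 1.05 in the early gate and 1.05 and 1.05 in the Il2ra gate, beside medians between 1.002 and 1.016 over all genes tested. The 1 gene that differed by at least 25% in both libraries was Bop1, a factor of large ribosomal subunit assembly, in the progenitor gate (66.5 against 49.8 CPM and 81.2 against 62.5 CPM). The same median by Mycn was 0.98 and 1.02 in the progenitor gate and 1.10 and 1.03 in the Il2ra gate. Among proliferation genes, Pcna was 1.46 and 1.31 times lower with Myc in the progenitor gate, and Mki67 (1.72 and 1.31 times) and Rrm2 (1.27 and 1.27 times) were lower with Myc in the early gate. Medians this close to those of all genes are a description of these libraries and not a result about the lists.

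The genes most like each member over the 5 gates of both libraries, 10 points centred within library and sharing barcodes between gates, were ranked among 3297 genes with at least 50 CPM. For Mycn they were Gatad1 (r = 0.994), Rsl1d1 (0.992), Vamp5 (0.989), Cd48 (0.988) and Mpp6 (0.987), with r a Pearson correlation of log2(CPM + 5). Cd48, a surface protein of the SLAM group, went from 248.8 and 260.8 CPM in the progenitor gate to 29.9 and 42.6 CPM in the commitment gate, and Gatad1 from 88.0 and 105.7 CPM to 45.6 and 62.9 CPM. For Myc they were Iars (0.917), Casp8 (0.902), Tmed2 (0.889), Rps19 (0.869) and Cnot4 (0.863). Iars, an aminoacyl-tRNA synthetase, stood at 57.2, 50.2, 46.3, 51.4 and 47.0 CPM in the gates of FL001 and at 49.0, 57.3, 58.6, 64.9 and 50.2 CPM in FL002. The likeness to Myc was over a small range of levels, so these r values are weak descriptions.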

How the data were processed

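The 2 droplet libraries (Chromium, 3′ ends) were of mouse fetal liver cells in T-lineage culture. The authors computed gene by barcode matrices with CellRanger, and the deposited values are raw UMI counts; the version is not given in the sources used here, and the labels list build mm9. Total counts were 16320118 and 22651783 UMIs. Kept barcodes had 1500 UMIs or more, 500 genes or more and no more than 10% mitochondrial UMIs. Counts were summed per gate and library and divided by the summed totals (CPM), with exact Poisson or Clopper-Pearson 95% intervals that cover counting error only. With 1 library per group there is no test, and no p was computed; whether the libraries came from separate embryos or cultures is not stated. Ratios of 2 sums have conditional exact intervals. Genes were compared when at 20 CPM or more in either group in both libraries and called at 1.5 times (25% by detection, over 5 bins of total UMIs), the same way in both. This code was tested on simulated data: for the commitment over progenitor comparison it found 199 of 200 genes changed 3-fold, among 5377 tested. In the same simulation 1 unchanged gene passed the fold. The simulated gene counts held counting error only. They do not show how the code does for changes near 1.5 times or in the comparisons by detection. Medians of lists used ratios of CPM + 5. The named genes are the members, the gate genes, all MYC network genes, up to 4 list genes per comparison past the fold, and the 5 genes most like Myc or Mycn. Mpo, S100a8 and S100a9 in the comparisons by detection and the splits of gates by marker or commitment gene UMIs were chosen after their values were seen. The members and lists were chosen with earlier results of these data known. Doublets were not removed: the Scrublet caller in scanpy 1.11.5 marked 7 and 1 barcodes (0.391% and 0.0244%), so it did not work as a caller, and an alternative leaves out the 5% of highest scores. Alternatives also changed the filters, gates, depth and cell content. Python 3.11.15, numpy 2.4.6 and scipy 1.17.1 were used.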

Additional observations from a re-analysis of the deposited data

Results flagged for a closer look

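The ratio of levels between gates went opposite ways in FL001 and FL002 in 5 cases, and the difference between the libraries was not tested in any. For Myc, early over progenitor gate was 0.948 in FL001 and 1.12 in FL002, Cd3g over early gate was 0.837 and 1.14, and commitment over progenitor gate was 0.837 and 1.04. For Mycn, early over progenitor gate was 1.01 and 0.907, and Il2ra over Cd3g gate was 1.17 and 0.989. Of these 10 ratios, the 95% counting interval of 1 excluded 1, Myc in commitment over progenitor gate of FL001 (0.703 to 0.996).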

How the results depend on the processing

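No paired analysis was possible because each library is the only sample of its group. Of 90 alternative values for co-detection all stayed within the interval of the value reported, as did 80 of 90 for the Myc share of family UMIs, 166 of 176 for folds between gates, 194 of 200 for the relation to total UMIs, and 148 of 160 for levels. The lower Mycn level in the commitment than in the progenitor gate, and in the Cd3g than in the early gate, held its direction in every alternative of both libraries.

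Leaving out barcodes with other lineage markers, which takes most neutrophil and monocyte barcodes and, through Cpa3 and Gzmb, some lymphoid ones, moved most. The Myc share in FL001 became 31.7% in the progenitor, 76.0% in the Cd3g and 75.2% in the Il2ra gate, and 38.8% in the progenitor gate of FL002. Commitment over progenitor gate reversed for Myc in FL001 (1.14; 1.45 in FL002) and became 0.0655 for Mycn in FL001. Early over progenitor became 1.21 and 1.59 for Myc and 0.655 and 0.769 for Mycn, and Cd3g over early 0.231 for Mycn in FL001. Over total UMIs in the progenitor gate of FL001, Mycn reversed to 1.62 and Myc became 3.62.

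With exclusive gates the Myc share was 58.0% in the Cd3g and 65.4% in the Il2ra gate of FL001 and 53.4% in the early gate of FL002, Cd3g over early was 0.614 for Mycn in FL001 and 1.36 for Myc in FL002. Gate thresholds raised by 1 UMI gave a Myc share of 74.1% in the Il2ra gate of FL001, and highest over lowest bin of total UMIs of 0.779 for Mycn in FL001 and 0.608 for Myc in FL002 there. The progenitor Myc share of FL002 was 47.8% thinned and 47.3% as a mean over barcodes. In the Il2ra gate of FL002 the Mycn depth ratio was 1.01 with at least 3000 UMIs per barcode and 1.38 over 3 bins, so it rests on the shallowest barcodes. The cause was not tested.

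Counts of genes past the fold depend on the filter and the fold. Of 59 alternative counts 39 moved and 20 did not. In the order early over progenitor, Cd3g over early, Il2ra over Cd3g, commitment over progenitor, and Il2ra with over without commitment genes, they were 170, 135, 7, 492 and 105 at 50 CPM, 2392, 2153, 1132, 4139 and 2077 with no filter, and 163, 120, 2, 552 and 95 at a fold of 2. By Myc detection in the progenitor, early and Il2ra gates they were 43, 38 and 4 at 50 CPM, 2203, 2179 and 1680 with no filter, 19, 23 and 1 at 1.5 times, and 555, 302 and 85 without other lineage markers. By Mycn detection they were 64, 37 and 83, 2346, 2336 and 2692, 51, 39 and 49, and 468, 376 and 388. With fewer barcodes or no level filter the counting error per gene is larger, and leaving out lineage markers also changes the cells. The part of each in these counts was not tested. Mycl, at 8 and 9 UMIs in all, is below what this depth can order.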
